A study of Mus musculus with 6 samples.

Results

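Elastic fibres give stretch to the extracellular matrix. They are built on microfibrils, beaded filaments of the large glycoproteins fibrillin 1 and fibrillin 2, to which small microfibril-associated glycoproteins and fibulins attach and on which elastin is laid down and cross-linked. Microfibrils also hold latent TGF-beta in the matrix by way of latent TGF-beta binding proteins. In fat tissue fibrillin 1 is a matrix component of preadipocytes, and the C-terminal piece cut from its precursor is the secreted hormone asprosin. The genes described here are 10 of the 24421 genes of the count table, chosen by symbol: the fibrillins Fbn1 and Fbn2, the microfibril-associated glycoproteins Mfap2 and Mfap5, elastin (Eln), and the fibulins Fbln1, Fbln2, Efemp1 (fibulin 3), Efemp2 (fibulin 4) and Fbln5. All 10 were found in the table.

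RNA was sequenced from 3 libraries of 3T3-L1 cells with a knockout of Ube3d and from 3 libraries of wild-type 3T3-L1 cells. 3T3-L1 is a mouse embryonic fibroblast line used as a preadipocyte model, and Ube3d encodes a ubiquitin ligase. Both groups were undifferentiated, in log-phase growth and cultured alike in high-glucose medium with serum, without reaching confluence. The sources used here do not say how the knockout was made, which part of the gene was removed or whether its libraries come from 1 clone, and clone and genotype cannot be told apart. Total gene counts were 25267434 to 28042970 in the knockout and 23767181 to 29389480 in wild type. Ube3d, listed as Ube2cbp, had 56, 43 and 53 counts in the knockout, against 145, 229 and 173 in wild type, a 3.62-fold decrease. Fibroblast markers were abundant, at a summed 9298 to 9419 CPM (reads of a gene per 1000000, scaled for library make-up) over 8 genes in the knockout and 11329 to 11580 CPM in wild type. The mature adipocyte marker Adipoq had 2 counts in the 6 libraries together and Lep had 0, and the epithelial markers Epcam and Krt18 had 0. The ribosomal RNA gene Rn45s took 9.68% to 10.2% of counts in the knockout and 7.28% to 8.91% in wild type, and with it left out the same number of the 10 genes, 6, was called lower. The 6 include Fbln1 and Mfap5, which had 0 and 1 counts in the knockout. With Rn45s kept, 31.2% of all tested genes were called lower.

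Of the 10 genes, 6 had enough counts to be tested, and each of these fell in the knockout (adjusted p under 0.05 in the quasi-likelihood test of edgeR). Over all 12947 tested genes 31.2% were called lower, 30.3% higher and 61.4% in either direction, so that a call by itself was common in these libraries. The sizes ranged widely, from a 1.09-fold decrease for Efemp2 to no count at all in the knockout for Fbln1. The number called higher was 0 with edgeR, 0 at an unadjusted p under 0.05, 0 with DESeq2 and 0 with limma-voom. Fbln1 and Mfap5 passed the count filter only through their wild-type libraries and therefore had to differ, so their values are given below as a description, with no test. The other 4 genes were not tested: Fbn2 and Eln had no count in any library, and Efemp1 and Mfap2 had too few. The median log2 change of the 4 tested genes other than Fbln1 and Mfap5 was −0.999, against 0.004 over all tested genes. In bulk RNA, a lower level per cell and fewer expressing cells cannot be told apart. The sample titles number biological replicates without giving their origin, so the p-values reflect the spread among these libraries alone, which may be technical.

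**Figure D1:**
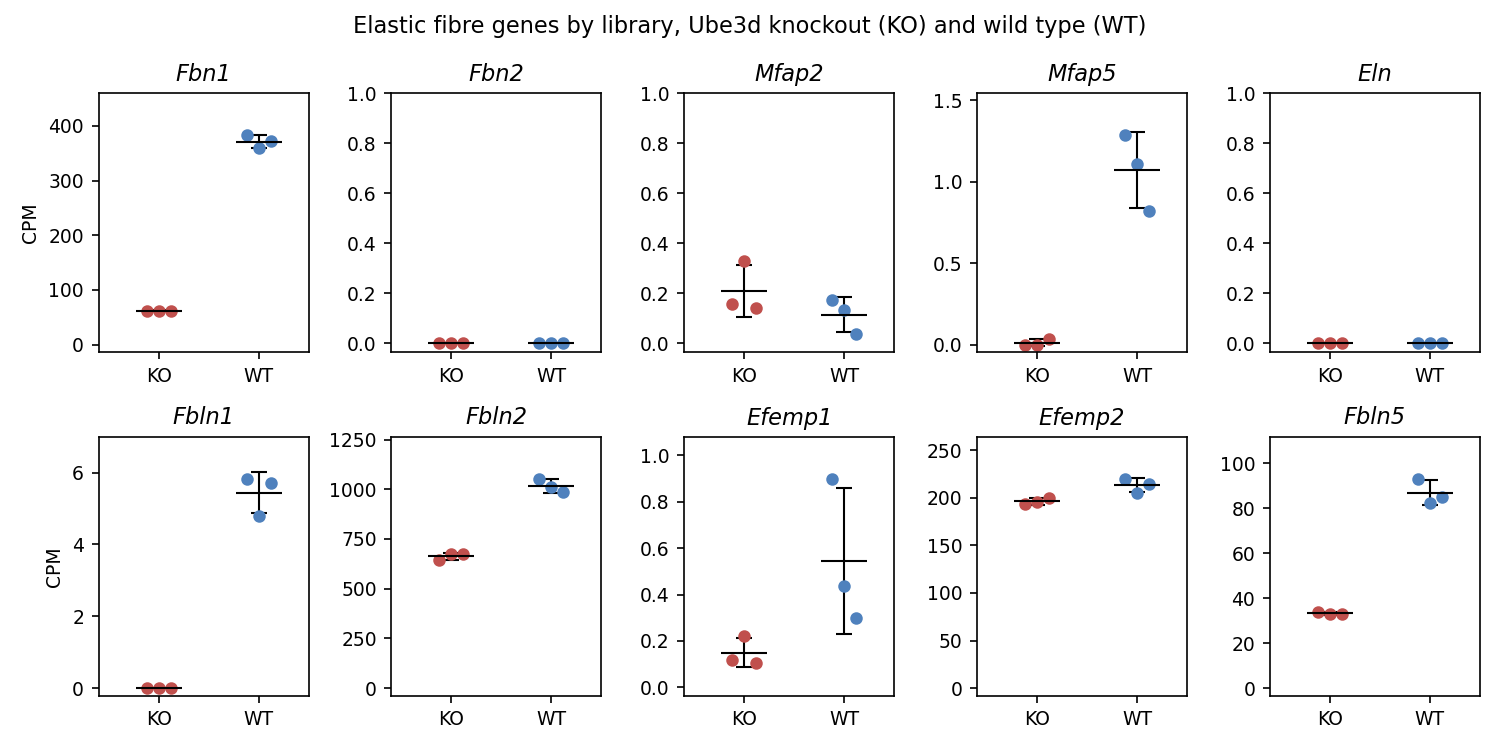
CPM of each gene in the 3 knockout (KO) and 3 wild-type (WT) libraries, with 1 point per library and the mean ± SD as black lines; each panel has its own axis. The groups stand apart for Fbn1, Mfap5, Fbln1, Fbln2, Efemp1, Efemp2 and Fbln5, overlap for Mfap2, and Fbn2 and Eln are at 0 throughout. Over all tested genes the groups stood apart for 64.3%.

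Fbn1, the fibrillin of postnatal microfibrils, was the most strongly lowered of the abundant members. It had 62.3, 61.1 and 62.4 CPM in the knockout libraries and 383, 359 and 372 CPM in the wild-type libraries. The knockout libraries lay within a narrow band far below the wild-type ones. The decrease was 5.99-fold (log2 fold change −2.58, SE 0.03, edgeR adjusted p = 3.8e-64), with a 95% interval of 5.73 to 6.27. Of all tested genes 0.85% were lowered as much or more. By level per kilobase of exon Fbn1 was number 7631 of the 12947 tested genes in the knockout and number 1889 in wild type. The gene lies on chromosome 2, at 125300594 to 125506438 (GRCm38, minus strand), and has 66 exons in the deposited model. Genes of chromosome 2 were lower in general, with a median log2 change of −0.24, and centred on that median the change of Fbn1 was −2.34.

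Fbn2, the fibrillin of developing tissues, had 0 counts in all 6 libraries over an exon length of 10480 bases. A count of 0 allows up to 3 counts per library, which is 0.101 to 0.128 CPM. Set against the Fbn1 counts, this allows Fbn2 at most 0.189% of fibrillin counts in a knockout library and at most 0.0336% in a wild-type library. Fibrillin RNA was therefore Fbn1 RNA in both genotypes as far as this depth shows. Elastin itself, the stretchable core protein, was likewise listed at 0 in all 6 libraries over 3781 bases of exon (chromosome 5, 134702596 to 134747254). Such genes were common, at 26.4% of the table. These floors and the count intervals below cover counting error only.

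The 2 microfibril-associated glycoproteins, short proteins that decorate the fibrillin beads, had few counts and stood differently in the 2 genotypes. Mfap5, also known as MAGP2, had 0, 0 and 1 counts in the knockout and 30, 33 and 22 in wild type. In CPM that was 0.012 ± 0.021 in the knockout and 1.07 ± 0.23 in wild type (SD, n = 3 each). The ratio of knockout to wild-type counts, scaled to library size, was 0.0116, with an exact 95% interval of 0.000291 to 0.0665. With a filter at 1 CPM in 3 libraries Mfap5 was not tested. It lies on chromosome 6, at 122513676 to 122529287 on the plus strand. Mfap2, or MAGP1, on chromosome 4 at 141010424 to 141015984, had 4, 9 and 4 counts in the knockout and 4, 4 and 1 in wild type. Those groups overlapped, and the ratio of 1.87 had a 95% interval of 0.787 to 4.75. Of the counts per kilobase of these 2 genes, Mfap5 made up 5.60% ± 9.70 in the knockout and 89.2% ± 4.81 in wild type. The difference was −83.6 percentage points, and in the knockout libraries the share rests on 4 to 9 counts each. It is given with no test, since the near absence of Mfap5 from the knockout fixes it.

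Fibulins are secreted glycoproteins with calcium-binding EGF-like repeats and a shared C-terminal domain. Fbln1, which binds fibronectin and elastin and lies within elastic fibres, had 0 counts in every knockout library and 136, 142 and 153 in wild type. Its wild-type level was 5.44 ± 0.57 CPM (SD, n = 3). Against a floor of 3 counts per library it was at least 48.8-fold lower in the knockout. The gene lies on chromosome 15, at 85206008 to 85286294 on the plus strand, with 17 exons. The nearest tested genes beside Fbln1, looked up after its values were seen, were counted in both genotypes. Atxn10, 50.1 kb away on the higher side, had 153 ± 2.8 CPM in the knockout, against 155 ± 4.8 CPM in wild type (log2 −0.01, edgeR adjusted p = 0.746). Fam118a, 143 kb away on the lower side, had 17.0 ± 0.77 CPM in the knockout, against 21.2 ± 0.26 CPM in wild type (log2 −0.31, SE 0.07, edgeR adjusted p = 4.7e-05). Over the nearest tested neighbours outside the span of each of the 10 genes, 19 in all, 8 were higher, 7 lower and 4 not called. Genes within a span, such as Eno1b in Fbn2, were left out, and for Efemp1 none of the closest genes on the lower side was tested. Over all tested genes 30.3% were called higher and 31.2% lower. The 8 include Wnt7a beside Fbln2, at 0.156 CPM in wild type, whose wild-type libraries alone would not have passed the count filter. Both neighbours of Fbn1 were lower, Dut by log2 −0.66 and Cep152 by log2 −0.23, against a chromosome 2 median of −0.24. Beside Mfap5, Apobec1 was lower (log2 −2.86, SE 0.24, edgeR adjusted p = 2.2e-17) and Phc1 was not called (log2 0.03).

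The sequences before the starts of Fbln1 and Fbln5 are shown because these genes fell at least 2-fold and have a RefSeq entry at the start of the deposited gene model (build GRCm38.p6). Fbn1 has one too, but its window lies in GENCODE exons and is not shown. Each is on the gene's own strand, 5′ to 3′, without bases that GENCODE places in an exon. Capitals mark matches to any of 5 motifs on either strand, which may overlap each other: the TATA box TATAAA, the GC box GGGCGG, the CCAAT box CCAAT, the AP-1 site TGANTCA and the TEAD site GGAATG.
Fbln1, chr15:85205758-85205948, plus strand: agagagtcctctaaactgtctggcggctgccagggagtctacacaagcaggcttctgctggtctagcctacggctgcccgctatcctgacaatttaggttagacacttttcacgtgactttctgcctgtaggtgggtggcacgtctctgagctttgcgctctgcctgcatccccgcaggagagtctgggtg
Fbln5, chr12:101819120-101819369, minus strand: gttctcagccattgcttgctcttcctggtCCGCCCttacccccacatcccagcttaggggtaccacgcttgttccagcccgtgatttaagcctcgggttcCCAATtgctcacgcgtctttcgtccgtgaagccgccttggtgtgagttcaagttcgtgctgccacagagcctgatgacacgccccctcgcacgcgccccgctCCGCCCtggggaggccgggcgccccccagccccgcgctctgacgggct
The stretch of Fbln1 held none of these letters, and that of Fbln5 held the GC box on the opposite strand and the CCAAT box. In full windows of 250 bases before the start, which 7 of the 10 genes have, the GC box was present in 6, Mfap2 being the exception, and for Fbln1 it lies in the part not shown. It was present in 33.0% of the 32536 distinct windows of RefSeq. The 6 windows with the GC box were 53.6% to 75.6% G and C, against a median of 52.4% over all promoters. The part of this base make-up in the matches was not tested. The TATA box was in 0 of the 7, against 12.3% of all windows. The CCAAT box was in Fbln5 and Mfap2 (33.8% of all), the AP-1 site in Efemp1 (6.73% of all) and the TEAD site in Mfap2 (12.6% of all).

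Fbln5, which links elastin to microfibrils and to cell-surface integrins, had 34.0, 33.1 and 32.7 CPM in the knockout, against 93.0, 82.4 and 85.0 CPM in wild type. The lowest wild-type library was well above the highest knockout library. The decrease was 2.605-fold (log2 −1.38, SE 0.05, edgeR adjusted p = 1.1e-38), with a 95% interval of 2.45 to 2.77. It lies on chromosome 12, at 101746565 to 101819119 on the minus strand, with 11 exons. The tested genes of that chromosome had a median log2 change of 0.19, so that Fbln5 went against the general shift of its chromosome, at −1.57 when centred on it.

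Fbln2, a fibulin of microfibrils and basement membranes, was the most abundant member in both genotypes. It had 643, 672 and 673 CPM in the knockout, against 1052, 1013 and 986 CPM in wild type. The groups were separate, and the decrease was 1.53-fold (log2 −0.62, SE 0.03, edgeR adjusted p = 1.9e-29), with a 95% interval of 1.47 to 1.597. It lies on chromosome 6, at 91212764 to 91272540 on the plus strand, with 18 exons.

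Efemp2, or fibulin 4, which brings lysyl oxidase to elastin, changed least of the 6 tested members. It lies on chromosome 19, at 5474690 to 5481854 on the plus strand, with 10 exons. It had 193, 196 and 199.8 CPM in the knockout, against 219.8, 205 and 215 CPM in wild type. The highest knockout library lay just under the lowest wild-type library. The decrease was 1.09-fold (log2 −0.12, SE 0.03, edgeR adjusted p = 5.8e-04), and 33.9% of all tested genes were lowered as much or more. Genes of its chromosome, 19, were slightly higher in general (median log2 0.10), and centred on that median the change of Efemp2 was −0.22.

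Efemp1, or fibulin 3, on chromosome 11 at 28853205 to 28926743, was scarce, with 3, 6 and 3 counts in the knockout and 21, 13 and 8 in wild type. Its groups did not overlap, as was so for 64.3% of all tested genes. The count ratio was 0.282, with an exact 95% interval of 0.135 to 0.546 (two-sided exact permutation test of the CPM values, p = 0.1, the smallest possible). It was too low for the count filter, and without a filter it was called lower (log2 −1.82, SE 0.54, edgeR adjusted p = 0.0024).

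**Figure D2:**
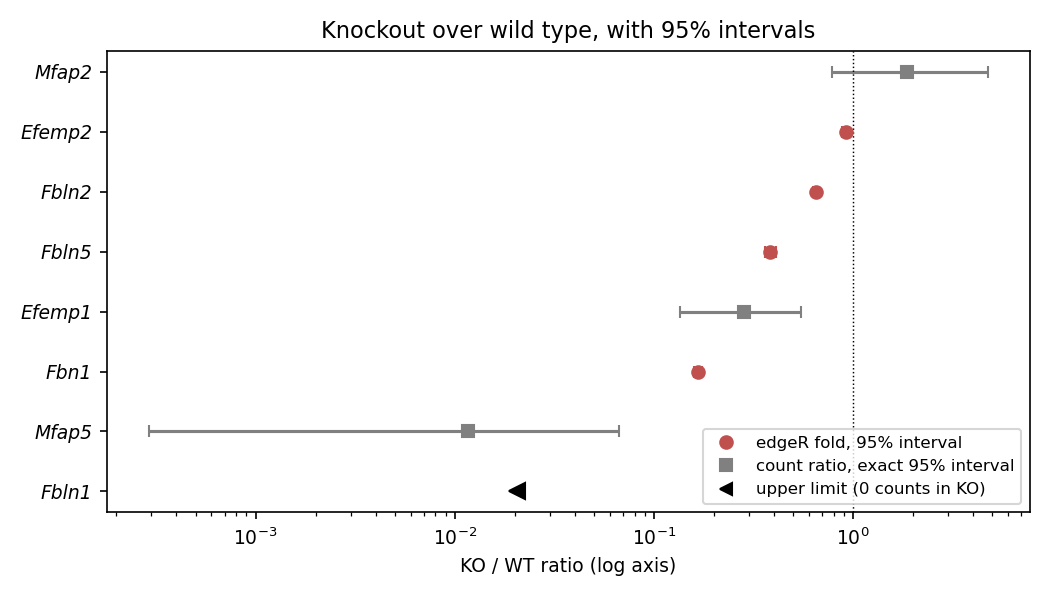
Ratio of knockout to wild type on a log axis for the 8 genes with counts: edgeR folds with 95% intervals as circles, count ratios with exact 95% intervals as squares, and the upper limit for Fbln1, which had 0 counts in the knockout, as a triangle. The ratios run from 0.0116 for Mfap5 to 1.87 for Mfap2, and among the genes plotted the interval of Mfap2 alone includes 1.

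The decreases of the 4 abundant members differed from each other by more than their errors, since the 95% intervals of Fbn1, Fbln5, Fbln2 and Efemp2 do not touch. The make-up of the set therefore differed between the genotypes. As levels per kilobase of exon, the 10 genes summed to 267 ± 5.3 CPM per kb in the knockout, against 398 ± 12.3 CPM per kb in wild type (SD, n = 3 each). Fbln2 made up 55.5% ± 0.39 of that sum in the knockout and 57.1% ± 0.83 in wild type. Efemp2 made up 39.9% ± 0.32 in the knockout and 29.1% ± 0.65 in wild type. Fbn1 made up 2.35% ± 0.062 in the knockout and 9.43% ± 0.15 in wild type, and Fbln5 2.12% ± 0.086 in the knockout and 3.70% ± 0.12 in wild type.

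**Figure D3:**
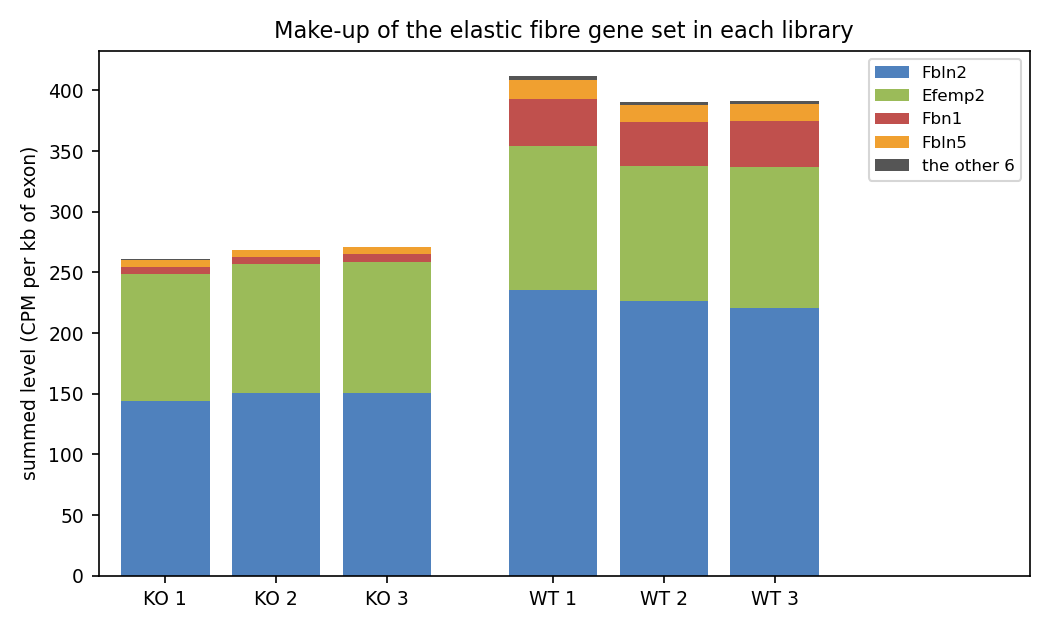
Summed level of the 10 genes in each library as stacked bars, in CPM per kilobase of exon, for the 3 knockout (KO) and 3 wild-type (WT) libraries. The knockout bars reach 261 to 271 and the wild-type bars 390 to 412, with Fbln2 and Efemp2 making up most of each bar and Fbn1 a thinner band in the knockout.

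By level per kilobase the order in the knockout was Fbln2 (148 CPM per kb), Efemp2 (107), Fbn1 (6.26), Fbln5 (5.65), Mfap2 (0.184), Efemp1 (0.073) and Mfap5 (0.0084), with Fbln1, Fbn2 and Eln at 0. In wild type it was Fbln2 (227 CPM per kb), Efemp2 (116), Fbn1 (37.5), Fbln5 (14.7), Fbln1 (1.62), Mfap5 (0.761), Efemp1 (0.268) and Mfap2 (0.10), with Fbn2 and Eln at 0. The upper 4 places were the same in both genotypes. Fbn1 and Fbln5 stood closer together in the knockout (6.26 ± 0.076 and 5.65 ± 0.11 CPM per kb) than in wild type (37.5 ± 1.19 and 14.7 ± 0.94 CPM per kb). Efemp1 and Mfap2, the lowest of the genes with counts in wild type, overlapped there (0.268 ± 0.15 and 0.10 ± 0.061 CPM per kb).

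Across the 6 libraries the genes most like Fbn1 were looked for among 11800 genes averaging 1 CPM or more, by Euclidean distance on centred log2 CPM. The 3 nearest were Csmd3 (distance 0.15), Heph, which encodes the ferroxidase hephaestin (0.16), and the chemokine gene Cxcl12 (0.19). Their log2 changes were −2.57, −2.61 and −2.44 in that order, against −2.58 for Fbn1. The distance thus mostly reflects a like fold between the genotypes. Cxcl12 had 51.1 ± 1.1 CPM in the knockout, against 278 ± 1.8 CPM in wild type, and Heph 3.84 ± 0.29 CPM in the knockout, against 23.6 ± 1.1 CPM in wild type. Among the other tested members Fbln5 was nearest to Fbn1, at a distance of 1.48, with 135 non-members closer.

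Most tested markers of smooth muscle and fibroblasts were lower in the knockout. The 6 smooth muscle markers summed to 102 to 111 CPM in the knockout and 415 to 430 CPM in wild type, with 3 of the 4 tested members lower and 1 higher. Most of that difference was Acta2 (39.0 CPM in the knockout, 333 CPM in wild type). Smtn was the 1 higher (61.4 and 56.8 CPM), and Myh11 and Cnn1 stayed under 1 CPM. Of the 8 fibroblast markers 6 were lower and 1 higher, against 31.2% lower and 30.3% higher over all tested genes. The 6 chondrocyte markers summed to 381 to 391 CPM in the knockout and 264 to 269 CPM in wild type, with 2 of 2 tested members higher and Col9a1 and Matn3 at 0. Nearly all of that sum was these 2, Sox9 (341 CPM in the knockout, 261 CPM in wild type) and Acan (44.6 and 5.49 CPM). Col2a1 and Comp stayed under 1 CPM. The 5 macrophage markers summed to 6.86 to 7.79 CPM in the knockout and 5.12 to 6.36 CPM in wild type, with Adgre1 at 0 and 1 of 3 tested members higher. For the 5 endothelial markers the knockout libraries summed to 1.45 to 2.42 CPM and the wild-type libraries to 0.60 to 1.08 CPM. The 1 tested member, Vwf, was higher, with a knockout mean of 1.27 CPM and a wild-type mean of 0.285 CPM. Its wild-type libraries alone would not have passed the count filter, so its call is a description only. The 6 mature adipocyte markers summed to 0.904 to 1.21 CPM in the knockout and 3.47 to 3.92 CPM in wild type, nearly all of it Fabp4, which was lower. The 5 epithelial markers summed to 0.249 to 0.623 CPM in the knockout and 0.30 to 0.505 CPM in wild type, with 0 tested. Their part in the changes of the elastic fibre genes was not tested.

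Partners of elastic fibres were called in both directions. Of 50 partner genes in 6 lists, 37 were tested, and 5 of the 6 lists held calls both higher and lower. With 30.3% of all tested genes called higher and 31.2% lower, calls on both sides were common in these libraries, and the counts of each list below stand against those shares. The 4 latent TGF-beta binding proteins, relatives of the fibrillins that dock on microfibrils, rose in the knockout, 4 of 4 (median log2 0.60). Ltbp1 had 750.4 ± 20.03 CPM in the knockout, against 470.3 ± 8.5 CPM in wild type, and rose 1.596-fold (log2 0.67, SE 0.03). Ltbp2, which also binds Fbln5, rose 2.04-fold, to 285 ± 1.3 CPM in the knockout, against 139.6 ± 4.0 CPM in wild type. Ltbp3 rose 1.44-fold and Ltbp4 1.25-fold. The call of Ltbp4 was lost without knockout replicate 2 (log2 0.22, edgeR adjusted p = 0.0861).

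Lysyl oxidases cross-link elastin and collagen. Lox fell 3.72-fold, to 142 ± 3.6 CPM in the knockout, against 527 ± 21.0 CPM in wild type. None of its 3 tested relatives was called lower. Loxl3 rose 1.34-fold and Loxl4 1.39-fold, and Loxl1, which binds fibulin 5, had 142 ± 3.8 CPM in the knockout, against 144 ± 5.2 CPM in wild type (log2 −0.02, edgeR adjusted p = 0.651). With Loxl2 too low to test, 2 rose and 1 fell of 4 (median log2 0.20).

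Of 6 tested ADAMTS and ADAMTS-like genes, whose secreted products are known to bind or act near fibrillin microfibrils, 2 rose and 3 fell (median log2 −0.47), against 30.3% higher and 31.2% lower over all tested genes. Adamtsl1 rose 6.48-fold, to 13.1 ± 0.76 CPM in the knockout, against 2.00 ± 0.28 CPM in wild type. Adamtsl4, which promotes fibrillin 1 deposition, rose 2.44-fold, to 31.8 ± 0.84 CPM in the knockout, against 13.1 ± 1.1 CPM in wild type. Adamtsl5 fell 2.76-fold and Adamts6 2.71-fold. The third that fell was Adamts10 (log2 −0.28), whose call was lost without wild-type replicate 2 (log2 −0.12, edgeR adjusted p = 0.202).

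Of 9 other tested microfibril and elastin partners, 5 rose and 2 fell (median log2 0.44). The proteoglycan gene Dcn rose 5.57-fold, to 186 ± 1.5 CPM in the knockout, against 33.5 ± 1.9 CPM in wild type. The basement membrane proteoglycan gene Hspg2 rose 1.46-fold. Versican, Vcan, a proteoglycan that binds fibrillin and fibulins, fell 1.52-fold, to 989 ± 27.4 CPM in the knockout, against 1503 ± 30.9 CPM in wild type. Fibronectin, Fn1, on which microfibril assembly depends, fell 1.32-fold. The remaining 3 that rose were Emilin1 (log2 0.44), Emilin2 (log2 0.43) and Mmrn2 (log2 0.55). The call of Mmrn2 was lost with DESeq2 (adjusted p = 0.0746), without knockout replicate 1 (edgeR adjusted p = 0.124) and without wild-type replicate 3 (edgeR adjusted p = 0.126). Mfap4 was not called (log2 1.02, edgeR adjusted p = 0.0844). It was scarce, with 35 knockout and 17 wild-type counts in all, and its groups overlapped. Mfap4 was called higher with limma-voom (log2 1.70, adjusted p = 0.0155). The same held without knockout replicate 2 (log2 1.28, edgeR adjusted p = 0.0394) and without wild-type replicate 2 (log2 2.07, edgeR adjusted p = 0.0111). Its wild-type libraries alone would not have passed the count filter, so these calls do not establish a rise. Bgn missed the threshold (log2 0.04) and was called higher when centred on its chromosome (log2 0.13, edgeR adjusted p = 7.2e-05).

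Of 5 tested proteases that cut elastin or its partners, 3 rose and 1 fell (median log2 0.19). Mmp9 rose 8.01-fold, to 6.75 ± 0.88 CPM in the knockout, against 0.847 ± 0.26 CPM in wild type, while Ctsk, cathepsin K, fell 3.44-fold. Ctsl rose 1.15-fold and Mmp14 1.14-fold. Mmp2 missed the threshold (log2 −0.06, edgeR adjusted p = 0.088) and was called lower without wild-type replicate 3 (log2 −0.07, edgeR adjusted p = 0.0419). Of 9 tested integrin and elastin receptor genes, 4 rose and 3 fell (median log2 0.01), near the shares over all tested genes. Itgb3 fell 1.69-fold, Ctsa, a subunit of the elastin receptor complex, 1.26-fold and Itgav 1.21-fold, and Itga5 rose 1.12-fold. Itgav and Ctsa lie on chromosome 2, and centred on it Itgav was not called (log2 −0.04, edgeR adjusted p = 0.251). The other 3 that rose were Itgb5 (log2 0.23), Glb1 (log2 0.14) and Neu1 (log2 0.19, edgeR adjusted p = 0.186 without knockout replicate 2). Itgb1 was not called (log2 −0.001), but was called higher when centred on its chromosome (log2 0.07, edgeR adjusted p = 0.0417).

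**Figure D4:**
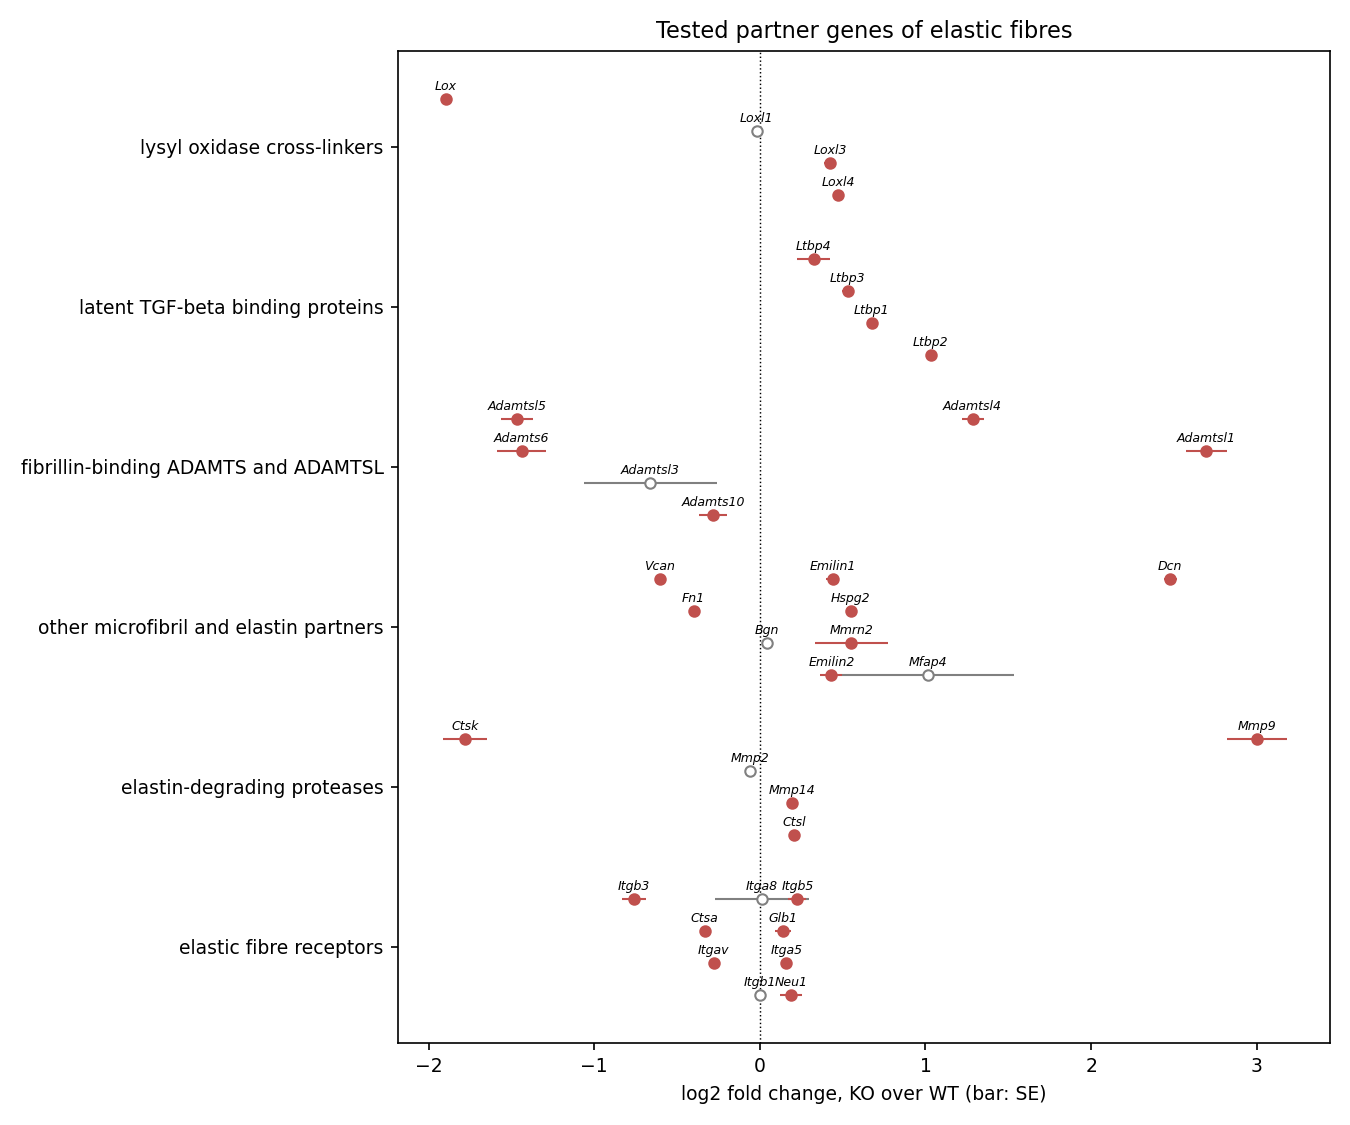
log2 fold change, knockout over wild type, of the 37 tested partner genes in 6 lists, with the SE as a bar; filled points passed the edgeR test at an adjusted p under 0.05 and open points did not. The 4 latent TGF-beta binding proteins lie right of 0, while the other 5 lists hold filled points on both sides; centred per chromosome, Itgav is no longer called, and Bgn and Itgb1 are called higher.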

How the data were processed

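Stranded, rRNA-depleted libraries were made from total RNA, per the labels' protocols. The deposited gene table holds whole-number read counts, not normalized, with exon coordinates, strand and summed exon length. The submitters' processing notes list STAR 2.6.1d, featureCounts 1.6.3 and mm10 (GRCm38) without saying which step used what. The sources used here state neither the strand setting of the counting nor how reads with several alignments were treated. No exon of the 10 genes overlaps an exon of another listed gene. Counts of downstream-of-gene regions carry no gene names and were not used.

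Groups came from the sample titles. Counts were filtered with filterByExpr (minimum count 10, minimum total 15), scaled by TMM and compared with the robust quasi-likelihood test of edgeR 4.0.16 (R 4.3.3). Benjamini-Hochberg adjustment ran over 12947 genes, and genes under 0.05 were called. Each SE, and the 95% interval of a fold, was derived from the log2 fold change and its F statistic. CPM uses TMM-scaled library sizes, and CPM per kb divides by exon length. A group at 0 was set against 3 counts per library, and scarce genes got a count ratio with an exact binomial interval. Scarce genes were compared by exact permutation of their CPM values. Alternatives used limma 3.58.1, DESeq2 1.42.0, other scalings and filters, a replicate block, chromosome centring and left-out libraries. Leaving out Rn45s was added after the data were seen. The edgeR fit was checked on simulated counts. Python 3.11.15, pandas 2.3.3, NumPy 2.4.6, SciPy 1.17.1 and matplotlib 3.10.9 were used. Libraries of 1 genotype differed by more than sampling noise (chi-square per gene 2.05 to 6.50), so none was counted as a duplicate.

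The named genes were the 10 members, the smallest adjusted p-values of each list (up to 4 genes), 3 genes most like Fbn1, and Ube3d. Other genes were named after their values were seen. The members and lists were chosen with earlier results of these data known.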

Additional observations from a re-analysis of the deposited data

How the results depend on the processing

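Over 14 alternatives, the number of the 10 genes called lower was 5 to 7, against 6 in the analysis as reported, and the number called higher was 0. The lower calls include Fbln1 and, where tested, Mfap5. In the analysis as reported these 2 passed the count filter only through their wild-type libraries, and 31.2% of all tested genes were called lower. The number of the 10 called lower was 5 with a filter at 1 CPM, which leaves out Mfap5, and 7 with no count filter and without some libraries, where Efemp1 is tested. Without those libraries Efemp1 passed the count filter only through wild-type libraries, so its call there is a description only. Leaving out each library in turn gave 6 or 7. Fbn1 stayed between −2.61 and −2.34 on the log2 scale, Fbln5 between −1.57 and −1.34, Fbln2 between −0.64 and −0.52, and Efemp2 between −0.22 and −0.10, with adjusted p of at most 0.0090. The partner genes called higher numbered 19 to 22 and those called lower 9 to 11. In the analysis as reported they were 20 and 10 of 37 tested, against 30.3% higher and 31.2% lower over all tested genes. Same-numbered libraries did not deviate together (correlations −0.033 to −0.029). With 3 libraries per genotype this cannot settle whether the numbers pair the samples. With a replicate block the number called lower was 6, and 7816 genes were called in all, against 7955. The Mfap5 share differed by −89.2 to −80.8 percentage points over its alternatives. For Efemp1, Mfap2, Mfap5 and Fbln1 depth limits the ratios, since their knockout libraries hold at most 17 counts in all (Mfap2), and 0 for Fbln1.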
